A study of Mus musculus with 4 samples.

Results

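The genes described here make, load, take up and break down the inhibitory transmitters GABA and glycine: Gad1, Gad2, Slc32a1, Slc6a5, Slc6a9, Slc6a11, Slc6a13, Abat and Aldh5a1, 9 of the 78334 gene identifiers in the count table. They were chosen by function and with the difference between the 2 groups in these same counts known. Their differences between the groups are therefore given as a description, with no test. The RNA came from wild-type mice of both sexes, 8 to 12 weeks old, whose optic nerve had been crushed 2 weeks before collection. An adeno-associated virus of serotype 2 had been put into the vitreous at 8 weeks of age, 2 weeks ahead of the crush. It carried either a scramble shRNA or an anti-miR132-3p shRNA, a short hairpin built to bind the microRNA miR-132-3p, and in both groups the red reporter mCherry. Retinas were pooled (10 per condition), cells were captured through the surface antigen Thy1 and sorted for mCherry, which reports the roughly 40% of ganglion cells that the virus reached, and about 5000 cells went into each of 2 libraries per group. The labels call the sorted cells retinal ganglion cells. The count table names its columns mCherry or miR132. The former were read as scramble by exclusion, and every direction depends on this reading.

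GABA is made from glutamate by 2 glutamate decarboxylases, encoded by Gad1 and Gad2, and is loaded into synaptic vesicles, as glycine is, by the vesicular transporter encoded by Slc32a1. After release, both transmitters are cleared by sodium-dependent transporters of the SLC6 family, and GABA is then degraded in mitochondria by the transaminase of Abat and the dehydrogenase of Aldh5a1. In the retina several of these genes are best known from amacrine cells, the inhibitory interneurons that synapse on ganglion cells. Most ganglion cells, by contrast, release glutamate.

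The microRNA and the designed inserts are shown because they define the 2 groups. The mature sequences are from RefSeq (GRCm38.p6), the inserts from the labels. Capitals mark the seed, bases 2 to 8, of the microRNAs and the match to it in the insert. The seed of miR-212-3p, made from the same cluster, is identical. The insert is the reverse complement of the whole miR-132-3p.
mmu-miR-132-3p: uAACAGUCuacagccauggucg
mmu-miR-212-3p: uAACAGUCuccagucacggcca
anti-miR132-3p insert: cgaccatggctgtaGACTGTTa
scramble insert: tcgagggcgacttaaccttagg

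Depth was 1845090 and 1846637 counts in the scramble libraries and 1732416 and 1731199 in the anti-miR132-3p libraries. Libraries of the same group were as alike as 2 draws from 1 pool of counts (chi-square per degree of freedom 1.02 and 1.00, p = 0.0954 and 0.486), against 4.01 to 4.03 across groups. Each pair was counted as 1 sample, so n = 1 per group, there is no SD, and differences have no replicate check. Levels are in CPM, counts per 1000000 counts of the library after scaling. Folds are ratios of CPM over summed pairs, with exact (Clopper-Pearson) 95% intervals that cover counting error only. A gene was called where the fold was at least 1.5 in either direction and the interval did not hold 1. By that rule 10.8% of 11427 genes with enough counts were called higher with the anti-miR132-3p shRNA and 3.73% lower. By edgeR's quasi-likelihood test on the reads of the 4 libraries, which compares these libraries and not the conditions, 13.5% were higher and 10.4% lower at an adjusted p under 0.05. The median log2 fold change of all these genes was -0.003.

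Of the 9 genes, 6 passed the filter on low counts, and Gad1, Slc32a1 and Slc6a13 did not. Slc6a11, Slc6a9 and Abat were called higher with the anti-miR132-3p shRNA and 0 of the 9 were called lower, beside 10.8% and 3.73% of all tested genes. By edgeR, Gad2 was also higher, which made 4, beside 13.5% of all tested genes. Since this comparison was known when the genes were chosen, nothing is read from these counts. Summed over the 9 genes, the level was 780 CPM in the scramble group against 1158 CPM in the anti-miR132-3p group, and most of these counts were of Gad2 and Abat.

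The 2 synthesis genes gave opposite pictures of abundance. Gad2, the decarboxylase associated with synaptic terminals, had 685 and 680 counts in the scramble libraries and 894 and 901 in the anti-miR132-3p libraries. Both anti-miR132-3p libraries lay above both scramble libraries. The level was 378 CPM against 521 CPM, 1.38-fold higher (1.28 to 1.48), which was under the fold needed for a call. Gad1, the decarboxylase found throughout the cell, was listed at 0 counts in all 4 libraries, where 3 counts would be 1.66 to 1.74 CPM. Slc32a1, the vesicular transporter without which neither GABA nor glycine is packed into vesicles, was also listed at 0 in all 4.

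A 0 in this table need not mean that a transcript was absent. Of the AP-2 factors of amacrine cells, Tfap2b was listed at 0 in every library beside 454 and 535 counts of Tfap2a and 458 and 634 of Tfap2c. Gad1 shares no exon bases with another gene in GENCODE M21, an older annotation than the one used for counting. Slc32a1 shares 24.9% of its exon bases with the antisense transcript Gm14205, which was at 0 too. What sets these zeros was not tested.

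**Figure D1:**
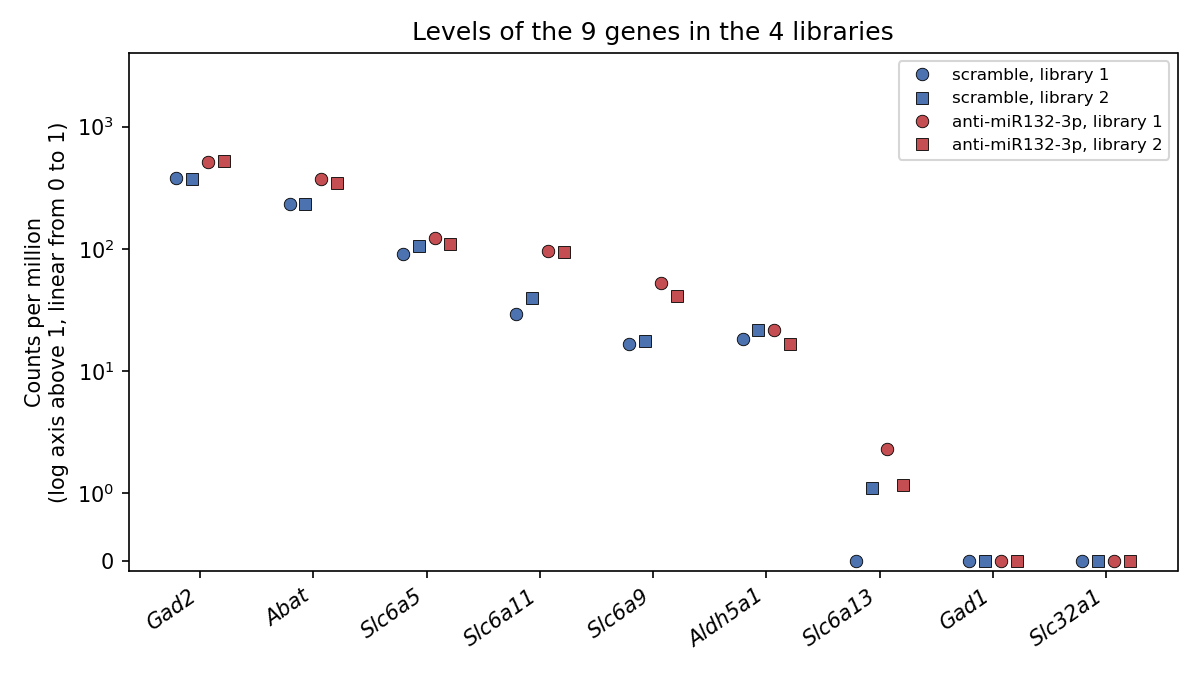
Levels in CPM of the 9 genes in each library (circles, library 1; squares, library 2; blue, scramble; red, anti-miR132-3p); the axis is logarithmic above 1 and linear below it. The red points lie above the blue ones for Gad2, Abat, Slc6a11 and Slc6a9, those of Slc6a5 and Aldh5a1 are close together, and Gad1 and Slc32a1 sit at 0.

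Among the GABA transporters, Slc6a11, which encodes an uptake carrier best known from glia, had the highest fold of the 6 measured genes, though within counting error of that of Slc6a9. It had 53 and 72 counts in the scramble libraries and 165 and 162 with the anti-miR132-3p shRNA. The groups did not overlap, and the scramble libraries were further apart than the other pair. The level was 34.6 CPM against 94.9 CPM, 2.74-fold higher (2.22 to 3.39), and 98.5% of all tested genes had a smaller log2 fold change. Slc6a13, a GABA carrier known from the pial surface, liver and kidney, was near the limit of detection, with 0 and 2 counts against 4 and 2. Its ratio of 3.14 had an interval of 0.562 to 31.8, so no difference was detectable at this depth. Slc6a12, the betaine and GABA carrier, which is not among the 9 genes, had 8 counts against 4 and did not pass the filter.

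Of the 2 glycine transporter genes, 1 was called higher. Slc6a9, which encodes the carrier of glycinergic amacrine cells and glia, had 30 and 32 counts in the scramble libraries and 90 and 71 with the anti-miR132-3p shRNA. The lower anti-miR132-3p library still held over 2 times the counts of either scramble library. The level was 17.2 CPM against 46.7 CPM, 2.72-fold higher (2.02 to 3.71). On the opposite strand, B4galt2, Ccdc24 and Gm17114 share 30.2% of the exon bases of Slc6a9, and the strand setting of the counting is not given in the sources used here. B4galt2 had 31 counts against 40 and Ccdc24 4 against 4.

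Slc6a5, which encodes the glycine carrier of glycinergic terminals in the spinal cord and brainstem, differed little. It had 165 and 192 counts in the scramble libraries and 210 and 189 in the anti-miR132-3p libraries, so that the groups overlapped. Its level of 98.9 CPM against 116 CPM gave 1.17-fold (1.01 to 1.35), with a lower bound close to 1. Per kilobase of transcript, Slc6a5 stood at 14 CPM against 16.4 CPM, whereas Slc6a9 stood at 4.94 against 13.4 CPM.

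Of the breakdown genes, Abat was called and Aldh5a1 was not. Abat, the transaminase that opens GABA degradation, had 416 and 418 counts in the scramble libraries and 640 and 598 with the anti-miR132-3p shRNA. The groups were apart by far more than the libraries of either, and the level was 231 CPM against 359 CPM, 1.55-fold higher (1.42 to 1.7). After a correction for GC content and transcript length the fold of Abat was 1.43, under the limit for a call. Aldh5a1, the next enzyme of the pathway, had 33 and 39 counts against 37 and 29. Its ratio was 0.96 (0.677 to 1.36), an interval that still holds changes from about 1.48-fold lower to about 1.36-fold higher. It shares 17.7% of its exon bases with 2 genes of the opposite strand, of which 9330162012Rik had 15 counts against 24.

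Set per kilobase of the longest coding transcript in GENCODE M21, the order of the levels in the scramble group was Gad2 (65.8 CPM), Abat (49.8), Slc6a5 (14), Slc6a11 (8.38), Slc6a9 (4.94), Aldh5a1 (3.53) and Slc6a13 (0.248). With the anti-miR132-3p shRNA the levels per kilobase were 90.7 CPM for Gad2, 77.5 for Abat, 23 for Slc6a11, 16.4 for Slc6a5, 13.4 for Slc6a9, 3.39 for Aldh5a1 and 0.779 for Slc6a13. Slc6a11 and Slc6a5 changed places between the groups, and the other genes kept their order. The exact Poisson intervals of neighbours overlapped for Slc6a9 (3.79 to 6.33) and Aldh5a1 (2.76 to 4.45) in the scramble group and for Slc6a5 (14.8 to 18.1) and Slc6a9 (11.4 to 15.7) in the other, and those of all other neighbours did not.

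**Figure D2:**
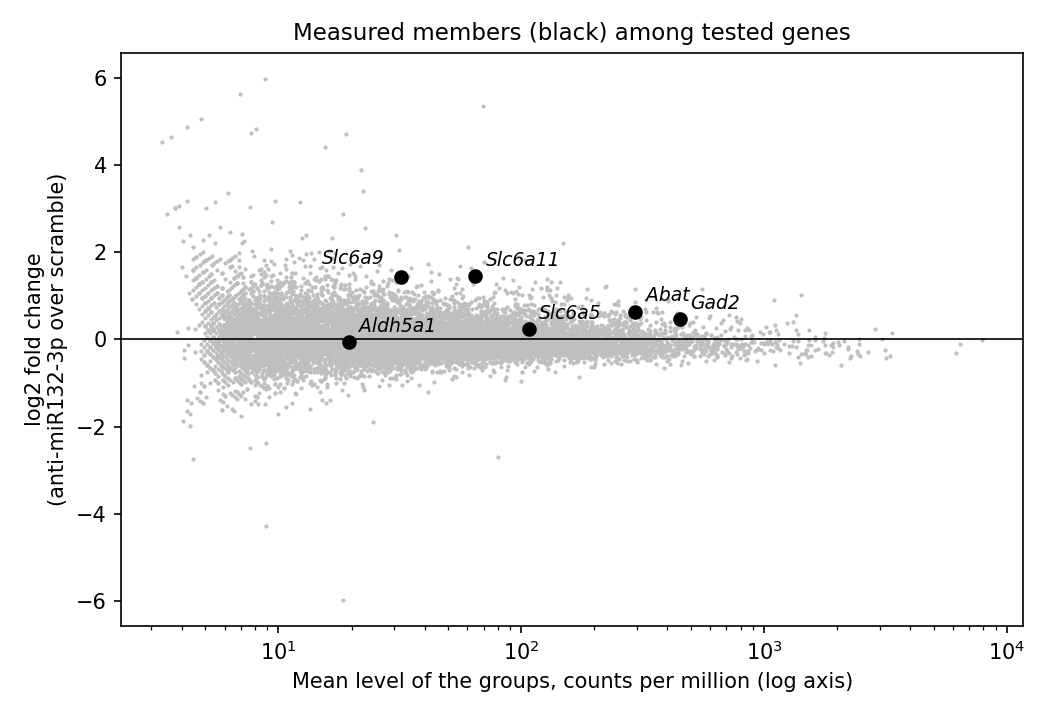
Log2 fold change (anti-miR132-3p over scramble) against the mean level in CPM on a log axis, for all tested genes with counts in both groups (grey) and the 6 measured members (black). Slc6a11 and Slc6a9 lie at 1.45 and 1.44, near the upper edge of genes of their level, and Aldh5a1 lies at -0.06.

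Seed sites of miR-132-3p were looked for in the annotated 3' UTR of the members, using the 8mer GACTGTTA, the 7mer GACTGTT and the 7mer ACTGTTA, the last counted only outside an 8mer. In the longest 3' UTR of each gene, Aldh5a1 was the single member with a site. The UTRs of Slc6a11, Slc6a9 and Abat held none. Of 10400 tested genes with a UTR, 23.1% had a site, and among genes called higher the share was 21.6%. A match describes letters in the annotation and shows no binding. Of the 64 tested genes of the pathway lists described below, 13 had a site. The part of such sites in the differences between the groups was not tested. The site of Aldh5a1 is printed with the match in capitals, as 30 bases of transcript sequence from GENCODE M21. It is the only site in the longest 3' UTRs of the members.
Aldh5a1 site at base 3817 of the UTR: cttaatactgtGACTGTTtcatgccatact

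Promoter windows, 250 bases before to 50 after a start site, were given by RefSeq (GRCm38.p6) for 8 of the 9 genes, 13 windows in all, with none for Abat. Neither the interferon factor core GAAANNGAA nor the cyclic AMP response element TGACGTCA was found on either strand of these windows, against 8.56% and 1.79% of all 32851 windows. The AP-1 site TGANTCA was in 1 window, of Slc6a5, against 7.81% of all.

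Genes around the pathway were taken from 8 lists of 99 genes, of which 64 passed the filter. Among these 64, 8 were called higher and 5 lower, beside 10.8% and 3.73% of all tested genes. Calls in the single lists given below stand beside the same shares, and nothing is read from their counts. Among the other SLC6 transporters, the taurine transporter gene Slc6a6 was at 261 CPM against 320 CPM and the creatine transporter gene Slc6a8 at 52.1 against 49 CPM. The median log2 fold change of the 6 tested genes of that list was 0.13.

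Enzymes that feed or flank the GABA route differed in both directions. Pdxk, the kinase that makes the pyridoxal phosphate needed by both glutamate decarboxylases and by the transaminase of Abat, had 55 and 47 counts against 119 and 135. It was 2.61-fold higher (2.06 to 3.31), and the groups did not overlap. Pdxk shares 39% of its exon bases with 4921516A02Rik, and how the counting treated shared bases is not known. Aldh1a1, a retinaldehyde dehydrogenase also reported to make GABA in some neurons, had 23 and 24 counts against 3 and 5 and was 5.61-fold lower (2.63 to 13.7). DESeq2 gave no adjusted p for Aldh1a1, and edgeR's adjusted p was 0.000398. The list of other GABA metabolism had 1 of 7 tested genes higher and 1 lower, with a median of -0.02.

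Supply of glutamate and glutamine was close to even between the groups, with 1 of 11 genes higher and 1 lower and a median of -0.07. The glutamine carrier gene Slc38a1 was at 553 against 603 CPM. Gls2, a glutaminase gene, was 1.61-fold higher (1.09 to 2.39). Slc1a2, a glutamate transporter of brain glia and of retinal bipolar cells and cones, had 23 and 21 counts against 10 and 10, 2.1-fold lower (1.21 to 3.76). The call of Gls2 was lost without scramble replicate 1 (1.57-fold, interval holding 1), without anti-miR132-3p replicate 2 (1.58-fold) and after the GC and length correction (1.41-fold). It also failed by edgeR (adjusted p = 0.0598) and DESeq2 (adjusted p = 0.454).

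In glycine and serine metabolism, with a median of -0.05 over 13 tested genes, calls went both ways, 2 higher and 2 lower. Psat1, the transaminase of serine synthesis, had 272 and 239 counts against 156 and 157, 1.56-fold lower (1.35 to 1.8). The other enzymes of that route did not reach the fold for a call, though by edgeR both were lower (adjusted p = 0.0051 for Phgdh and 0.0439 for Psph), as Psat1 was (0.000195). DESeq2 called Psat1 lower but neither of the others. Phgdh, which opens it, had 97.2 CPM in the scramble group and 69.3 CPM in the other, 1.4-fold lower (1.19 to 1.66). For Psph, which ends it, these values were 44 and 30.7 CPM, 1.43-fold lower (1.11 to 1.85). Slc25a38, the mitochondrial glycine carrier, was 1.51-fold lower (1.16 to 1.98). Slc1a4, a carrier of serine and other neutral amino acids, was 1.8-fold higher (1.36 to 2.41), and Slc36a1, a proton-coupled carrier of glycine and GABA in lysosomes, was 2.39-fold higher (1.41 to 4.21).

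These calls of the glycine and serine list were sensitive to single libraries. Psat1 was 0.687 of the scramble level without scramble replicate 1, and 0.675 after the GC and length correction. Slc25a38 was 0.795 without scramble replicate 1 and 0.788 without anti-miR132-3p replicate 1. Without anti-miR132-3p replicate 1, Slc1a4 was 1.49-fold and Slc36a1 1.9-fold higher, the latter with an interval holding 1. Slc25a38 was not called with library totals as the scale (0.672 of the scramble level) or by edgeR (adjusted p = 0.0556), and by DESeq2 neither it nor Slc1a4 nor Slc36a1 was called (adjusted p = 0.327, 0.13 and 0.233). Gldc, which encodes the glycine-cleaving decarboxylase, was at 0 in all 4 libraries.

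On the receiving side the median of 13 tested GABA receptor genes was 0.10, and 3 were called higher and 0 lower. Both subunits of the metabotropic receptor were among them. Gabbr1 had 82 and 93 counts against 134 and 162, 1.77-fold higher (1.46 to 2.15), and Gabbr2 had 65 and 70 against 128 and 90, 1.69-fold higher (1.36 to 2.11). Gabrg3, a subunit of the chloride channel receptor, was 1.87-fold higher (1.29 to 2.74). Gabbr2 was 1.4-fold higher without anti-miR132-3p replicate 1 and 1.33-fold after the GC and length correction, short of a call both times. DESeq2 called neither Gabbr2 (adjusted p = 0.0627) nor Gabrg3 (adjusted p = 0.238), and edgeR called both.

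**Figure D3:**
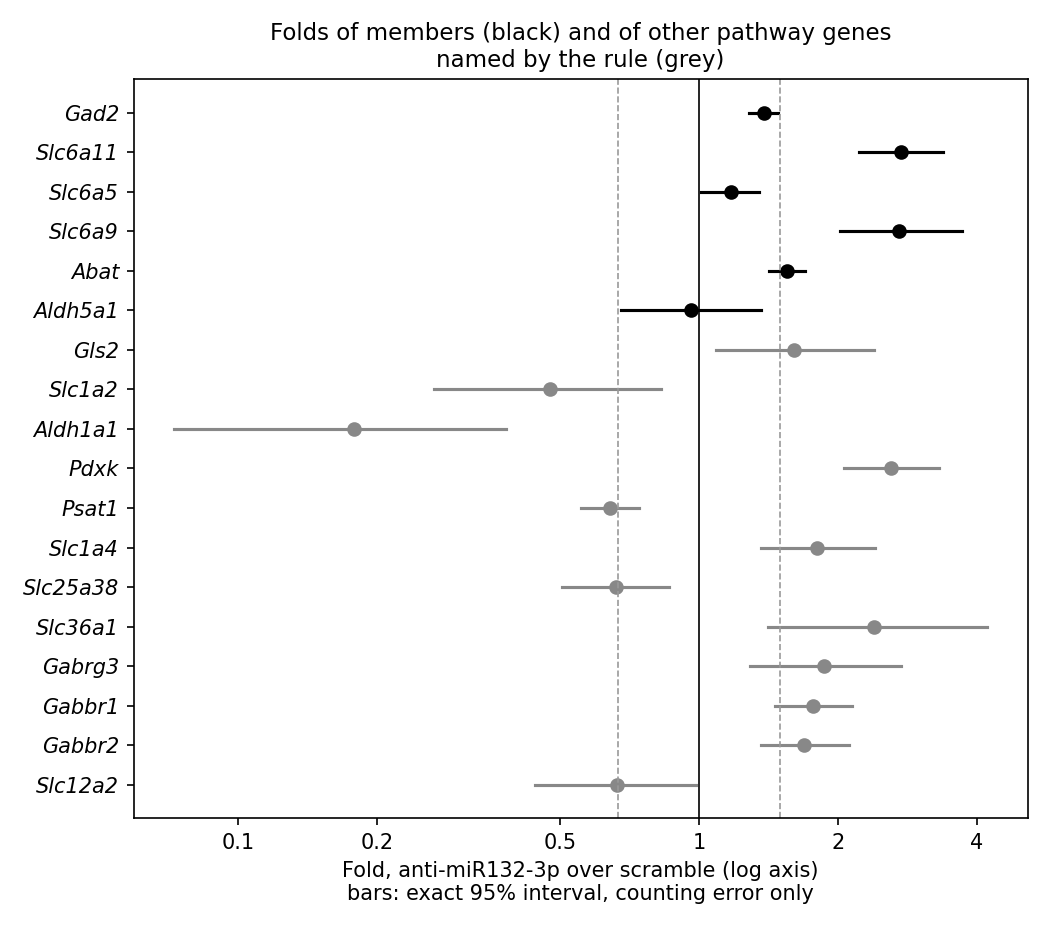
Folds of anti-miR132-3p over scramble on a log axis with exact 95% intervals of counting error, for the 6 measured members (black) and the other pathway genes that the naming rule selected (grey); dashed lines mark 1.5-fold in either direction. Slc6a11 and Slc6a9 lie above 2, Gad2 and Slc6a5 lie between 1 and 1.5, and Aldh1a1 and Slc1a2 lie lowest.

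Since several of the members are best known from interneurons or glia, marker lists of the cell types that the sort could hold were summed. Bulk counts cannot tell fewer cells of a type from less RNA per cell. The ganglion cell list of 13 genes was at 3155 CPM against 3141 CPM, with 0 of 12 tested genes called in either direction, but its members differed both ways. By edgeR, 3 were higher and 3 lower. The higher ones were Thy1, the antigen used for capture (226 against 333 CPM, 1.47-fold), Tubb3 (257 against 365 CPM, 1.42-fold) and Nefm (50.4 against 65.6 CPM, 1.3-fold). The lower ones were Pou4f1 (40.4 against 27.6 CPM, a ratio of 0.681), Nefh (108 against 80.1 CPM, 0.743) and Gap43 (1150 against 972 CPM, 0.846). The amacrine list of 17 genes was at 2758 and 2790 CPM in the scramble libraries and 2724 and 2722 CPM in the others, led by Pax6, which ganglion cells also express, and Calb2. Of its 10 tested genes 1 was called higher, Vip, with 4 counts against 23, and 0 lower. Tfap2a, at 126 against 155 CPM, and Tfap2c, at 127 against 184 CPM, were 1.23-fold and 1.45-fold higher, and Tfap2b, Ptf1a, Sst and Sox2 were at 0. Of the 10 tested genes, 3 lay above the scramble level and 7 below it, with a median log2 fold change of -0.13. By edgeR, 3 were higher (Vip, Tfap2a and Tfap2c) and 3 lower. The lower ones were Calb2 (479 against 427 CPM, a ratio of 0.89), Tac1 (215 against 183 CPM, 0.853) and Penk (111 against 87.6 CPM, 0.793). The glycinergic amacrine list of 8 genes was at 78.7 against 68.8 CPM, with 0 of 4 tested genes called. Of these tested genes, 2 lay above the scramble level and 2 below it. The 4 that did not pass the filter all had fewer counts with the anti-miR132-3p shRNA. Slc17a8 had 9 counts against 2, Neurod6 8 against 1, Neurod2 21 against 8 and Ppp1r17 10 against 5.

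The Müller glia list of 13 genes was at 1824 and 1818 CPM in the scramble libraries and at 2373 and 2386 CPM in the others, and 2 of its 8 tested genes were called higher, Apoe and Sox9. Most of that sum was Dkk3, with 3955 of 6573 counts against 5577 of 8202. Apoe was 3.31-fold higher (2.51 to 4.4) and Sox9 1.69-fold higher (1.09 to 2.63). By edgeR, Apoe and Dkk3 were higher and Sox9 was not. Of the other members, Clu had 2023 counts against 1913, Glul 257 against 229, Gpr37 115 against 110, Rlbp1 44 against 26 and Vim 28 against 33, with intervals that held 1. The 5 members that did not pass the filter were Aqp4 with 16 counts against 6, Slc1a3 with 11 against 10, Hes1 with 11 against 7, Crym with 8 against 12 and Kcnj10 with 0 against 3. The astrocyte list was at 37.1 against 22 CPM, the rod list at 103 against 28.1 CPM and the cone list at 20.2 against 4.35 CPM. The list of leukocytes other than microglia was at 4.99 against 58.6 CPM and the microglia list at 49.6 against 63.8 CPM. Bipolar markers were at 117 against 131 CPM, horizontal cell markers at 103 against 83.8, endothelial markers at 3.32 against 10.7, mural and fibroblast markers at 37.4 against 37.4, pigment epithelium markers at 6.37 against 3.48 and oligodendrocyte markers at 18 against 19.4 CPM. The part of these differences in the levels of Slc6a11, Slc6a9, Abat and Gad2 was not tested.

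**Figure D4:**
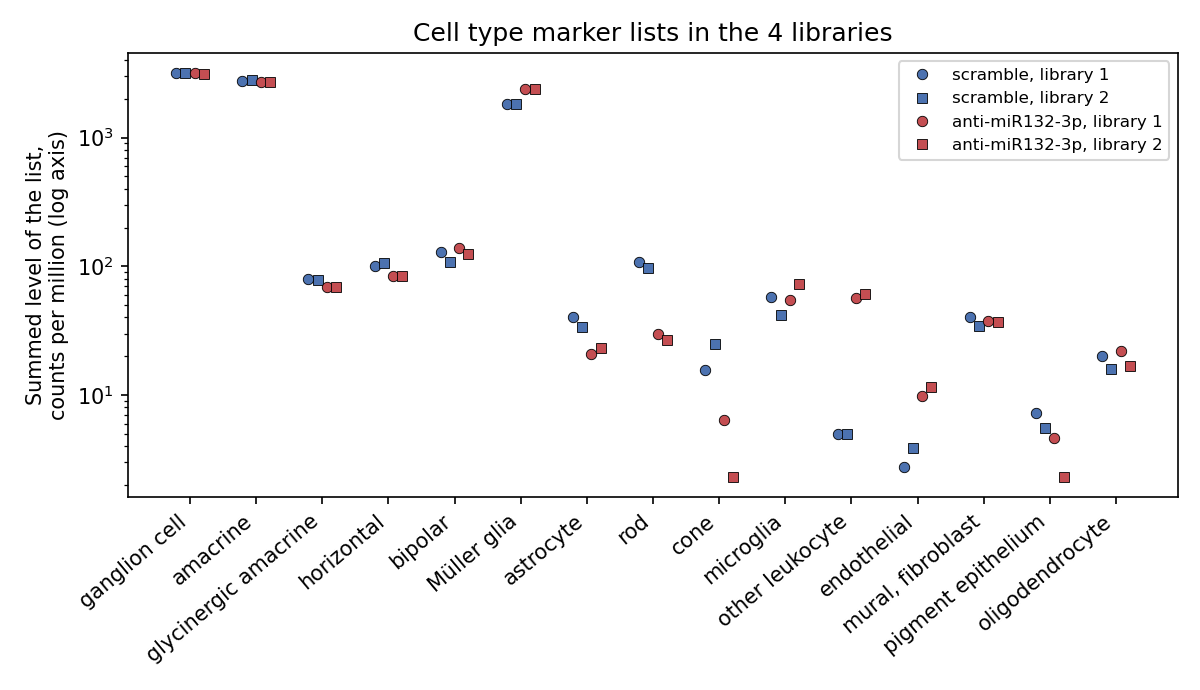
Summed CPM of each cell type marker list in each library on a log axis (circles, library 1; squares, library 2; blue, scramble; red, anti-miR132-3p). Ganglion cell and amacrine sums coincide between the groups, Müller glia and leukocyte sums are higher and rod, cone and astrocyte sums lower with the anti-miR132-3p shRNA.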

How the data were processed

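The deposited table holds whole-number counts per gene made by the authors. Cufflinks, Cuffnorm and Cuffdiff are named in the submitters' processing notes beside HISAT2 2.2.1, Trimmomatic 0.39, SAMtools 1.10 and build GRCm39. Which program counted, on which annotation and with which strand setting, is not given in the sources used here. Symbols came from GENCODE M21 (GRCm38) for 51486 of 78334 identifiers; unmatched ones held 0.436% of counts. Genes passed edgeR's filterByExpr and libraries were scaled by TMM (edgeR 4.0.16, R 4.3.3). Pairs were summed, and ratios with their intervals were computed in Python 3.11.15 with SciPy 1.17.1. The alternatives were DESeq2 1.42.0, edgeR's quasi-likelihood test with and without a replicate block, other scalings, filters and folds, left-out libraries, and a GC and length correction (splines with 4 degrees of freedom each; values for 98.7% of tested genes). Members, lists and rules were chosen with earlier results of these data known. Named beside the members were, from each pathway list, up to 4 called genes with a mean of at least 5 CPM, largest change first; other genes were named with their values in view, and some genes are not reported here. The fold rule and the edgeR step were tested on simulated counts. Nothing in the labels ties the 2 libraries of a group to different mice, so p-values measure only the spread between these libraries.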

Additional observations from a re-analysis of the deposited data

How the results depend on the processing

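The 3 members called higher stayed 3 under other scalings and filters and with any 1 library left out (3 to 3 higher, 0 to 0 lower). They were 4 at a lower fold limit and by edgeR and DESeq2, which add Gad2, and 2 at a fold of 2 and after the GC and length correction, which lose Abat. Pathway genes called, 8 higher and 5 lower, were 3 lower with library totals, 9 lower at the lower fold limit, and 3 and 2 at a fold of 2. Leaving out 1 library gave 5 to 8 higher and 3 to 5 lower, fewest higher without anti-miR132-3p replicate 1 and fewest lower without scramble replicate 1. Over all genes, 1230 higher and 426 lower became 1913 and 1162 at the lower fold limit, 484 and 105 at a fold of 2, 659 lower with no filter, and 1091 to 1147 higher and 381 to 431 lower with a library left out. After the GC and length correction, 888 genes were called higher and 378 lower. Of the pathway genes, 6 were then higher and 7 lower. The edgeR test, at 1540 and 1183, called 8 pathway genes lower. With the replicate block it called 1437 genes lower, 13 pathway genes higher and 9 lower; against the same test without it, the block changed no call of a member. The replicate numbers did not pair the libraries (correlation of deviations over genes 0.013). DESeq2's Wald test called 481 and 274 genes and 5 and 1 pathway genes. Of the pathway genes named, 7 lost their call by DESeq2 (Gls2, Slc36a1, Slc1a4, Slc25a38, Gabrg3, Gabbr2 and Slc12a2), and 2 (Aldh1a1 and Slc1a2) had no adjusted p. Folds, filters and left-out libraries change counts by construction; for the rest the cause was not tested. Counting sites in any annotated transcript gave 2 members with a site, adding Gad1. Of the log2 fold changes of single genes, 269 alternative values stayed within the main interval and 1, Gabbr2 (0.41) after the GC and length correction, did not. None changed sign among called genes. Part of the 269 could not move, since the other fold limits and the filter at a mean of 5 CPM leave a gene's fold unchanged. At this depth the intervals of Slc6a13 and Aldh5a1 held 1, and Gad1 and Slc32a1 gave no ratio.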

Other observations

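Among genes that set the response to GABA and glycine, the chloride extruder gene Slc12a5 had 159 and 177 counts in the scramble libraries and 238 and 205 in the others, 1.38-fold higher (1.2 to 1.6), and the chloride importer gene Slc12a2 had 29 and 39 against 24 and 19, 1.51-fold lower (1.02 to 2.27). The median log2 fold change of 6 tested chloride transport genes was 0.15, with 0 called higher and 1 lower. Slc12a2 was the gene called, and its ratio was 0.775 without scramble replicate 2 and 0.739 without anti-miR132-3p replicate 2, short of a call. It was not called with library totals as the scale either (0.674), nor by edgeR without and with the replicate block (adjusted p = 0.128 and 0.101) or by DESeq2 (adjusted p = 0.558).

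Of 5 tested genes of glycine receptors and their scaffolds, 0 were called in either direction, with a median of 0.12. Glra3, an alpha subunit, was at 224 against 319 CPM, 1.43-fold higher (1.3 to 1.56). The shared beta subunit gene Glrb was at 481 against 460 CPM. Of 3 tested vesicular transporters of other transmitters, 0 were called, with a median of -0.06.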
